A study of Mus musculus with 24 samples.

Results

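The 10 genes described here encode the core of retinoic acid signalling, and their peaks were compared between 2 mouse melanoma cell lines. They are Rara, Rarb and Rarg (retinoic acid receptors), Rxra and Rxrb (their partner receptors), Crabp1 and Crabp2 (cellular binding proteins), Aldh1a2 and Aldh1a3 (enzymes that make retinoic acid) and Cyp26b1 (an enzyme that breaks it down). The set was taken out of 21900 protein-coding genes by pathway and selected on these same peak lists, with their calls already known, so every value below is a description with no test. For each gene, peaks were taken within 1 kb of either end of its RefSeq gene (a gene-end peak) and within the gene plus 20 kb on each side (its locus).

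The line numbered 971 is labelled Kmt2d wild type (WT) and the line numbered 493 Kmt2d mutant (mutant). Kmt2d encodes an enzyme that methylates lysine 4 of histone H3, chiefly at enhancers, and the series profiles chromatin in both lines. Whether the mutant line lacks the protein is not shown by these lists. The allele, the origin of the lines and whether libraries came from separate cultures are not given in the sources used here. Medium for both lines was DMEM/F12 plus serum and antibiotics, and the labels name no retinoid treatment. The assay was CUT&RUN, which cuts out and sequences the DNA around an antibody's target. H3K4me3 (a mark of active promoters), Menin, TFAP2A, ARID1A, SMARCC1, UTX, ARID2, PBRM1 and BRD9 were profiled in both lines. KMT2D was profiled in the WT line alone. The mutant line alone had TFAP2B and SOX10, the latter with an antibody T and an antibody U. Each of the 22 lists came from 1 library, so there was no replicate check, and genotype and line cannot be told apart. A strong peak in few cells and a weak peak in many cannot be told apart either.

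Retinoic acid is made from vitamin A by retinol dehydrogenases and then by the ALDH1A enzymes, is carried within the cell by the CRABP proteins, and is cleared by the CYP26 enzymes. It binds RAR proteins, which sit on DNA as heterodimers with RXR and turn from repression to activation when the ligand binds. The pathway patterns the neural crest, the source of melanocytes, and retinoic acid slows growth in many melanoma cultures.

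Lists held from 90 peaks (mutant BRD9) to 25385 (mutant ARID1A). Depth at calling, meaning the depth the peak caller worked with, was reconstructed from the lists and is given as the ratio of mutant to WT. It was 1.81 to 1.87 for H3K4me3, Menin, TFAP2A and ARID1A and 1.58 for UTX. For ARID2 it was 2.37, for PBRM1 2.01 and for SMARCC1 0.394. Presence and absence were therefore compared at unequal depth. Fold enrichment over background is the authors' value for each peak and is read only within its own list, with a percentile where its place matters. The H3K4me3 lists had medians of 11.7 (WT) and 16.5 (mutant), so a higher mutant value need not be a higher place. Values are written as, for example, 17.7 (WT) and 15.5 (mutant). Of 8 pigment cell markers, Mitf, Pmel and Erbb3 had gene-end H3K4me3 in both lines, Sox10 in the mutant line only, and Tyr, Tyrp1, Dct and Mlana in neither. Pdgfrb, Col1a1 and Pdgfra of 6 fibroblast markers, Krt10 of 4 keratinocyte markers and Kdr of 4 endothelial markers had it in both lines, and 0 of 4 blood cell markers had it.

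Promoters of 7 of the 10 genes are shown, because H3K4me3 differed there between the lines or because a searched motif could be set against the peaks. Rxrb meets neither reason and is shown as the promoter under the highest TFAP2A percentiles at a member's end. Each is the 250 bases before the gene's most upstream start in the RefSeq promoter table (GRCm38.p6, the assembly called mm10), 5′ to 3′ on the gene's strand. Capitals mark matches on either strand to the retinoid receptor hexamer AGGTCA, its repeats AGGTCANNAGGTCA and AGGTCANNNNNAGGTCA (which contain it), the TFAP2 palindrome GCCNNNGGC, the SOX motifs ACAAAG and ACAATG, and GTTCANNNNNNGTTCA. The last was added after the sequences were read and spells the textbook response element of Rarb. The table has 14 windows for 8 of the 10 genes and no entry for Crabp2 and Aldh1a3.
Rara (chr11:98937446-98937695, plus strand): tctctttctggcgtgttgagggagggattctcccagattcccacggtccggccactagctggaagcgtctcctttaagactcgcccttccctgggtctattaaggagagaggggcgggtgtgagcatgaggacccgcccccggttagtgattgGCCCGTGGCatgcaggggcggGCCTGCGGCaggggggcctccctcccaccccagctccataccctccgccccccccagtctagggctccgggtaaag
Rarb (chr14:16575477-16575726, minus strand): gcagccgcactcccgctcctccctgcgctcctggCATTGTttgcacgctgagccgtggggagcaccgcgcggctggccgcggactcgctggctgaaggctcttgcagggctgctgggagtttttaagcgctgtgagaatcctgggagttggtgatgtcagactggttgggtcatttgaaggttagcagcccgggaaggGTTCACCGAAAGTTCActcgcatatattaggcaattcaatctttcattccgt
Rarg (chr15:102257523-102257772, minus strand): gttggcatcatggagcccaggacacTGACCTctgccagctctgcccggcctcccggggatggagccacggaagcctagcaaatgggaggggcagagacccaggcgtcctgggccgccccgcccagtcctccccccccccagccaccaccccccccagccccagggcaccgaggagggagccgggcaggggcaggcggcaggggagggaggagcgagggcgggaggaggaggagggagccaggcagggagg
Rxrb (chr17:34031562-34031811, plus strand): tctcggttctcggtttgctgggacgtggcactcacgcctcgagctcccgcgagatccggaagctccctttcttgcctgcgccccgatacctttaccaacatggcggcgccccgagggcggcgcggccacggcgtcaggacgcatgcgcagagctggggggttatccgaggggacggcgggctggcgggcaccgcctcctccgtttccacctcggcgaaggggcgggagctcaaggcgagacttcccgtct
Crabp1 (chr9:54764498-54764747, plus strand): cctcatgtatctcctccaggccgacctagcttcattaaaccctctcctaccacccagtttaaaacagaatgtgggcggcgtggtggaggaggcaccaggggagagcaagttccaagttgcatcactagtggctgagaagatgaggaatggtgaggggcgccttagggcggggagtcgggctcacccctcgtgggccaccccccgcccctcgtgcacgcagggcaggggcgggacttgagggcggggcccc
Aldh1a2 (chr9:71215539-71215788, plus strand): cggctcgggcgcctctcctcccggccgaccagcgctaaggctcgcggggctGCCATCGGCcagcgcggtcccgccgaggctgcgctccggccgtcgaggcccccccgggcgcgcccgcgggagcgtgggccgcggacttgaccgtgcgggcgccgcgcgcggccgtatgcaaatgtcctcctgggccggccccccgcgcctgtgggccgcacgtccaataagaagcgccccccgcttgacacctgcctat
Cyp26b1 (chr6:84593811-84594060, minus strand): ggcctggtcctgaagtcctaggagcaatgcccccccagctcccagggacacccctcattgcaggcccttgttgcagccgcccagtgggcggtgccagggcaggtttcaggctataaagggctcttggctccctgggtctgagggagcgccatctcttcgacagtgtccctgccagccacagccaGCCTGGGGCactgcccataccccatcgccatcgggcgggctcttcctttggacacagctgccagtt

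Over the full windows of the table, which run a little past the start, GCCNNNGGC was found in 5 of 14 member windows (35.7%) and in 16.6% of all 32851 windows. A pair of Rara windows overlap and hold the same matches. The sequences shown have 58.0 to 77.6% G and C, beside a median of 52.4% over the same bases of all windows, and the part of base composition in the motif counts was not tested. AGGTCA was found in 3 of 14 (21.4%) beside 16.3%, ACAAAG in 2 of 14 (14.3%) beside 18.7%, and ACAATG in 1 of 14 (7.14%) beside 12.6%. Each AGGTCA repeat was found in 0 of 14 and in 0.00913% of all windows. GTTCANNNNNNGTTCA was found in the Rarb window alone among the members and in 0.0761% of all windows. A match is a run of letters, not a measured binding site.

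At gene ends, H3K4me3 marked 4 of 10 genes in the WT line (49.3% of all genes) and 7 of 10 in the mutant line (53.8% of all genes). Rarg, Rxra, Rxrb and Aldh1a3 carried it in both lines, a class of 48.7% of all genes. Crabp1, Crabp2 and Aldh1a2 carried it in the mutant line only (5.09% of all genes), and 0 members in the WT line only (0.543%). Rara, Rarb and Cyp26b1 had no gene-end peak of any target in either line. TFAP2A, a transcription factor of the neural crest, marked 3 of 10 genes in WT (24.6% of all genes) and 6 of 10 in mutant (34%). Rarg, Rxra and Rxrb had TFAP2A in both lines (23.4%), Crabp2, Aldh1a2 and Aldh1a3 in the mutant line only (10.6%), and 0 members in the WT line only (1.2%). All 6 of these mutant-only peaks were kept at equal depth as reconstructed. That depth rests on a background value shared by few sampled summits. For H3K4me3 the share was 16.75% (WT) and 7% (mutant), and for TFAP2A 15.5% and 26.75%. The members were chosen with these calls known, so nothing is read from the counts against the shares.

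**Figure D1:**
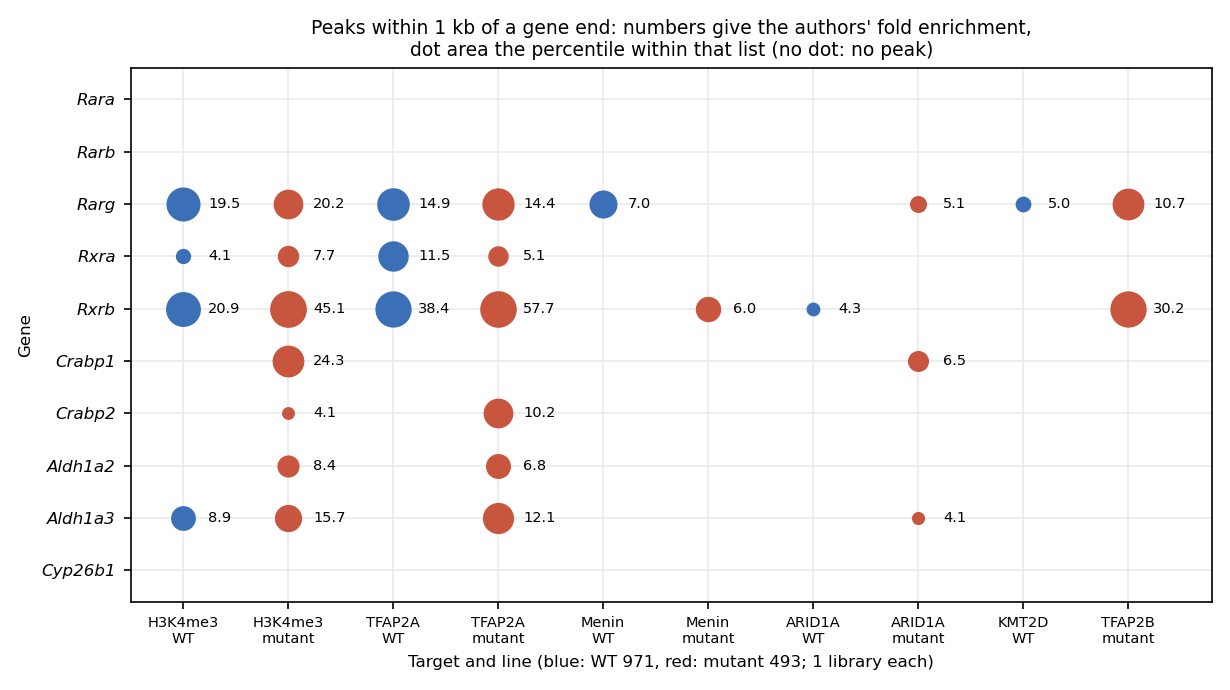
Gene-end peaks of the 10 genes (rows) by target and line (columns), with the authors' fold enrichment beside each dot and dot area growing with the percentile within that list. Mutant-only H3K4me3 dots stand at Crabp1 (24.3), Aldh1a2 (8.37) and Crabp2 (4.10), and Rara, Rarb and Cyp26b1 are empty.

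ARID1A, the subunit that marks the canonical BAF form of SWI/SNF, was at an end of Rxrb in WT (15.7% of all genes) and of Crabp1, Rarg and Aldh1a3 in mutant (20.9%). No member had it in both lines (12.9% of all genes), and its WT-only and mutant-only classes held 2.76% and 7.94%. Menin, which belongs to the complexes of KMT2A and KMT2B, was at an end of Rarg in WT (31.6%) and of Rxrb in mutant (37.9%). Its classes of both lines, WT only and mutant only held 29.6%, 1.92% and 8.28% of all genes. KMT2D was at an end of Rarg alone (10.1%), and TFAP2B at ends of Rarg and Rxrb (21.9%).

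UTX, a demethylase of the KMT2D complex, was at 0 members' ends (11.1% of all genes in WT, 8.86% in mutant). So was SMARCC1, a core SWI/SNF subunit (2.72% and 0.598%). ARID2 (0.986% and 0.932%), PBRM1 (1.9% and 2.03%) and BRD9 (0.21% and 0.0183%), subunits of other SWI/SNF forms, also marked 0 members. SOX10 marked 0 with antibody T (0.932%) and 0 with antibody U (3.83%). Over the 9 paired targets the 90 gene and target pairs gave 7 calls in both lines, 2 in WT only, 10 in mutant only and 71 in neither. All calls were of H3K4me3, TFAP2A, Menin or ARID1A. Over all genes, mutant-only also exceeded WT-only for H3K4me3 (5.09% and 0.543%), TFAP2A (10.6% and 1.2%), Menin (8.28% and 1.92%) and ARID1A (7.94% and 2.76%). The calls farthest from an end were mutant H3K4me3 at Crabp2 (556 bp), mutant TFAP2A at Aldh1a2 (492 bp) and WT Menin at Rarg (255 bp). The nearest misses were Menin at Rxra (1236 bp in WT, 1495 bp in mutant) and WT TFAP2A at Aldh1a3 (1436 bp).

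Rara, which encodes the most widely expressed of the RAR proteins, was marked inside the gene in both lines. H3K4me3 covered the promoter shown, with 17.7 (WT, percentile 77.1, chr11:98936314-98941922) and 15.5 (mutant, percentile 47.5, chr11:98936129-98939368). A downstream block had 27.6 (WT, percentile 98.3, chr11:98959436-98964516) and 40.7 (mutant, percentile 96.8, chr11:98959557-98964199). Both lines were thus marked at the same places. The promoter shown holds GCCNNNGGC at -97 and -76 from the start. TFAP2A peaks covered both matches in both lines, with 10.1 (WT) and 25.3 (mutant), as did TFAP2B in the mutant line (5.30). Counted within 1 kb of the RefSeq promoter windows, H3K4me3 marked 5 of the 8 genes with an entry in WT (52.2% of 17492 genes) and 7 of 8 in mutant (56.3%). That count adds Rara and Rarb in both lines and leaves Crabp1 and Aldh1a2 as mutant only.

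Inside Rara, UTX and Menin peaks were shared between the lines less than H3K4me3 peaks. Over whole WT lists they were shared less too, at 53.3% and 77.0% beside 91.7% for H3K4me3. A TFAP2A peak of the WT list (chr11:98951220-98951919) had 68.0, at percentile 99.3, and was overlapped by KMT2D (9.30), UTX (9.23), ARID1A (8.83) and Menin (6.61). In the mutant line that place had TFAP2A (10.2, percentile 60.1), ARID1A (5.80) and TFAP2B (7.99), and no UTX or Menin peak. Another site (mutant ARID1A peak chr11:98932989-98933782) had ARID1A at 23.7 (WT, percentile 92.4) and 60.3 (mutant, percentile 99.4). Its other WT peaks were KMT2D (5.91), UTX (11.2), SMARCC1 (14.4), TFAP2A (10.4) and ARID2 (6.001). Its other mutant peaks were SMARCC1 (7.73), TFAP2A (13.6), TFAP2B (7.11) and UTX (5.22). This SMARCC1 peak was the only one in any member's locus in the mutant line. Without peaks at the ends of neighbouring genes (Cdc6, Gm46294 and Gjd3), the Rara locus held 22 WT and 14 mutant peaks of the paired targets. That count also leaves out the peaks over the promoter shown, which lie within 1 kb of an end of Gm46294.

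Rarb, a receptor gene that retinoic acid itself induces in many cells, had weak H3K4me3 at its RefSeq start in both lines. The peaks had 4.08 (WT, percentile 7.76) and 4.10 (mutant, percentile 2.62). The WT peak (chr14:16574972-16575852) covered the capital repeat of the promoter shown (chr14:16575513-16575528), and the mutant peak (chr14:16575215-16575428) did not reach it. No other target had a peak at that start. Farther along the 651493 bp gene the lines differed in factor sites. At chr14:16433323-16433650 and chr14:16513380-16513787 the WT line had ARID1A (7.13 and 12.2) with SMARCC1 and TFAP2A, and the mutant line had no peak. At chr14:16957620-16958396 ARID1A had 20.2 (WT) and 12.2 (mutant), and SMARCC1 (11.6), UTX (13.0) and TFAP2A (5.91) joined it in WT only. TFAP2A at chr14:16597818-16598597 had 14.9 (WT) and 15.3 (mutant), beside a SOX10 peak of antibody U (4.53). The nearest KMT2D peak lay 1156686 bp from an end of Rarb. Without SMARCC1, whose mutant list was the shallower, Rarb had 13 WT and 6 mutant peaks.

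Rarg, the main RAR gene of skin, had H3K4me3 at both of its RefSeq starts in both lines. At the upstream start H3K4me3 had 19.5 (WT, percentile 82.7) and 20.2 (mutant, percentile 59.8), and TFAP2A 14.9 and 14.4. The promoter shown holds AGGTCA on its opposite strand at -225, under WT peaks of H3K4me3, TFAP2A and KMT2D and mutant peaks of H3K4me3, TFAP2A, ARID1A and TFAP2B. The KMT2D peak there was weak (4.97, percentile 8.94). At the internal start H3K4me3 had 27.9 (WT, percentile 98.4) and 23.3 (mutant, percentile 68.0) and Menin 16.2 and 13.9. Beside it lay the highest KMT2D peak of the members (chr15:102246991-102247772), with 16.0 at percentile 77.6. Over that peak UTX had 16.9 (WT) and 6.94 (mutant) and TFAP2A 11.7 and 32.2. ARID1A (8.59) and TFAP2B (15.05) were there in the mutant line, and ARID1A was absent in WT.

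Rxra and Rxrb, the partner receptor genes, were marked in both lines. The main H3K4me3 peak of Rxra lay just inside the gene, with 20.1 (WT, percentile 84.9, chr2:27677529-27679283) and 32.7 (mutant, percentile 88.4, chr2:27677559-27679151). A smaller one at the end had 4.08 (WT, percentile 7.76) and 7.72 (mutant, percentile 25.4). TFAP2A at that end had 11.5 (WT) and 5.09 (mutant). Upstream, a TFAP2A peak of 22.1 (WT, chr2:27671737-27672096) and 5.09 (mutant) came with ARID1A in both lines (10.5 and 7.21). Past the gene, a WT site carried KMT2D (6.50, chr2:27774376-27774728), UTX (14.5), ARID1A (7.70) and TFAP2A (7.03), and the mutant line had no peak. At a −log10 q of at least 5, Rxra kept 11 WT and 4 mutant peaks.

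Rxrb had the highest gene-end TFAP2A of the members, 38.4 (WT, percentile 95.8) and 57.7 (mutant, percentile 97.6), with TFAP2B at 30.2 (percentile 96.0). H3K4me3 there had 20.9 (WT, percentile 87.5) and 45.1 (mutant, percentile 98.6). The promoter shown holds no GCCNNNGGC, and the other Rxrb window of the table holds 1 at 27 bases past its start, under TFAP2A in both lines. Rxrb is packed among Ring1, H2-Ke6, Slc39a7 and Col11a2. Each peak of the paired targets in its locus touched 1 kb around an end of those genes, so 0 were left in either line without them.

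**Figure D2:**
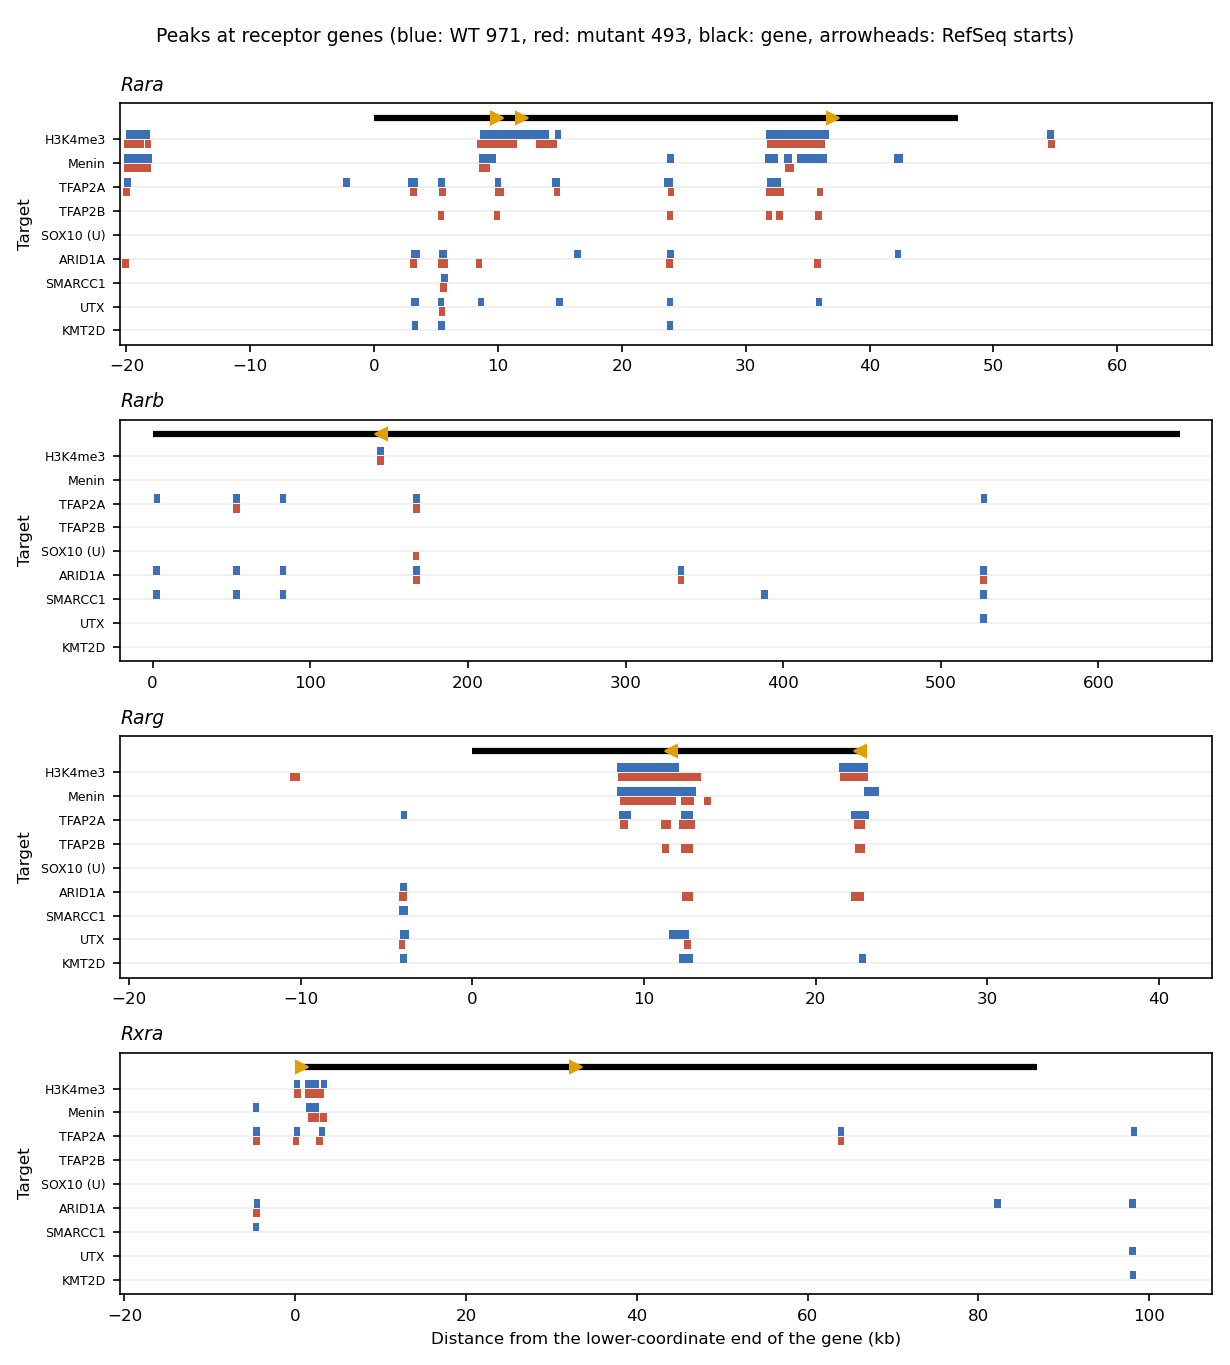
Peaks of each target (rows) along receptor genes, with distance from the lower-coordinate gene end in kb on the x axis, blue bars for WT and red bars for mutant peaks, the gene as a black bar and RefSeq starts as arrowheads. Short peaks are drawn at a minimum width and the ARID2 peak of Rara is left out. KMT2D peaks stand at Rara (3), Rarg (3) and Rxra (1).

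Crabp1, a carrier gene active in much of the embryonic neural crest, had 0 peaks in its locus in WT and 4 in mutant. Its H3K4me3 peak (chr9:54764567-54767701) was 3135 bp wide with 24.3, at percentile 70.4, and began within the promoter shown, which holds none of the motifs. Menin had 5.21 at the far edge of that peak. ARID1A had 6.49 past the other gene end and 8.63 farther on (chr9:54787777-54787970). The nearest WT H3K4me3 peak lay 30086 bp from the gene, and the nearest TFAP2A peak 29536 bp (WT) and 29466 bp (mutant). With flanks of 50 kb the locus held 5 WT and 11 mutant peaks.

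Crabp2, whose protein hands retinoic acid to the receptors, had a mutant-only H3K4me3 peak near its lower end that was weak (4.10, percentile 2.62, −log10 q 1.99). TFAP2A there was clearer (chr3:87947789-87948622, 10.2, percentile 60.1, −log10 q 14.6). The H3K4me3 peak was lost at a −log10 q of at least 5. A site past the gene was called in both lines for TFAP2A, with 20.7 (WT, chr3:87960644-87961103) and 33.9 (mutant, chr3:87960517-87961109). It also had H3K4me3 (5.03 and 9.36) and ARID1A (5.28 and 8.63) in both lines. Most other peaks lay at ends of Rrnad1, Isg20l2 and Nes, and without those the locus held 4 WT and 7 mutant peaks.

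Aldh1a2, which encodes the main retinoic acid synthesis enzyme of the early embryo, had no site in common between the lines. At its start the mutant line had H3K4me3 (chr9:71215401-71216259, 8.37, percentile 28.0) and TFAP2A (chr9:71215064-71215297, 6.79). The nearest WT H3K4me3 peak lay 188087 bp away. GCCNNNGGC at -199 of the promoter shown lay under the H3K4me3 peak and outside the TFAP2A peak. Inside the gene, the WT line had KMT2D (chr9:71278131-71278461, 7.20), UTX (12.3) and TFAP2A (9.83), where no mutant list had a peak. The mutant line had ARID1A at another place (chr9:71288900-71289117, 10.7).

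Aldh1a3, which encodes a second synthesis enzyme, had H3K4me3 at its upper end in both lines, 8.87 (WT, percentile 38.0) and 15.7 (mutant, percentile 48.2). TFAP2A (12.1) and ARID1A (4.14) were at that end in the mutant line only, and the ARID1A peak was not kept at equal depth. Inside the gene the mutant line had SOX10 of antibody U (chr7:66413506-66413986, 18.1, percentile 95.9), TFAP2A (18.7), TFAP2B (13.3), ARID1A (17.8) and UTX (16.5) at 1 site. The WT line had there a TFAP2A peak alone of the paired targets, at 3.43 and percentile 0.103. SOX10 and TFAP2B have no WT list to compare. Without peaks at an end of Lrrk1 the locus held 5 WT and 7 mutant peaks.

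Cyp26b1, the clearance enzyme gene, carried a wide H3K4me3 block in both lines that did not reach its RefSeq start. It had 12.5 (WT, percentile 54.2, chr6:84585513-84589366) and 17.1 (mutant, percentile 51.6, chr6:84584940-84590361) and ended 4542 bp and 3547 bp from the gene end. GCCNNNGGC at -66 of the promoter shown lay under no peak. TFAP2A within the block had 14.3 (WT) and 9.98 (mutant). Below the gene, 3 sites carried ARID1A in both lines, with 9.37, 15.4 and 4.402 (WT) and 21.3, 25.6 and 13.6 (mutant), in order of coordinate. At the middle site (mutant peak chr6:84565191-84565761) SMARCC1 (10.1) joined it in WT, and TFAP2A (13.0) and TFAP2B joined it in mutant.

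**Figure D3:**
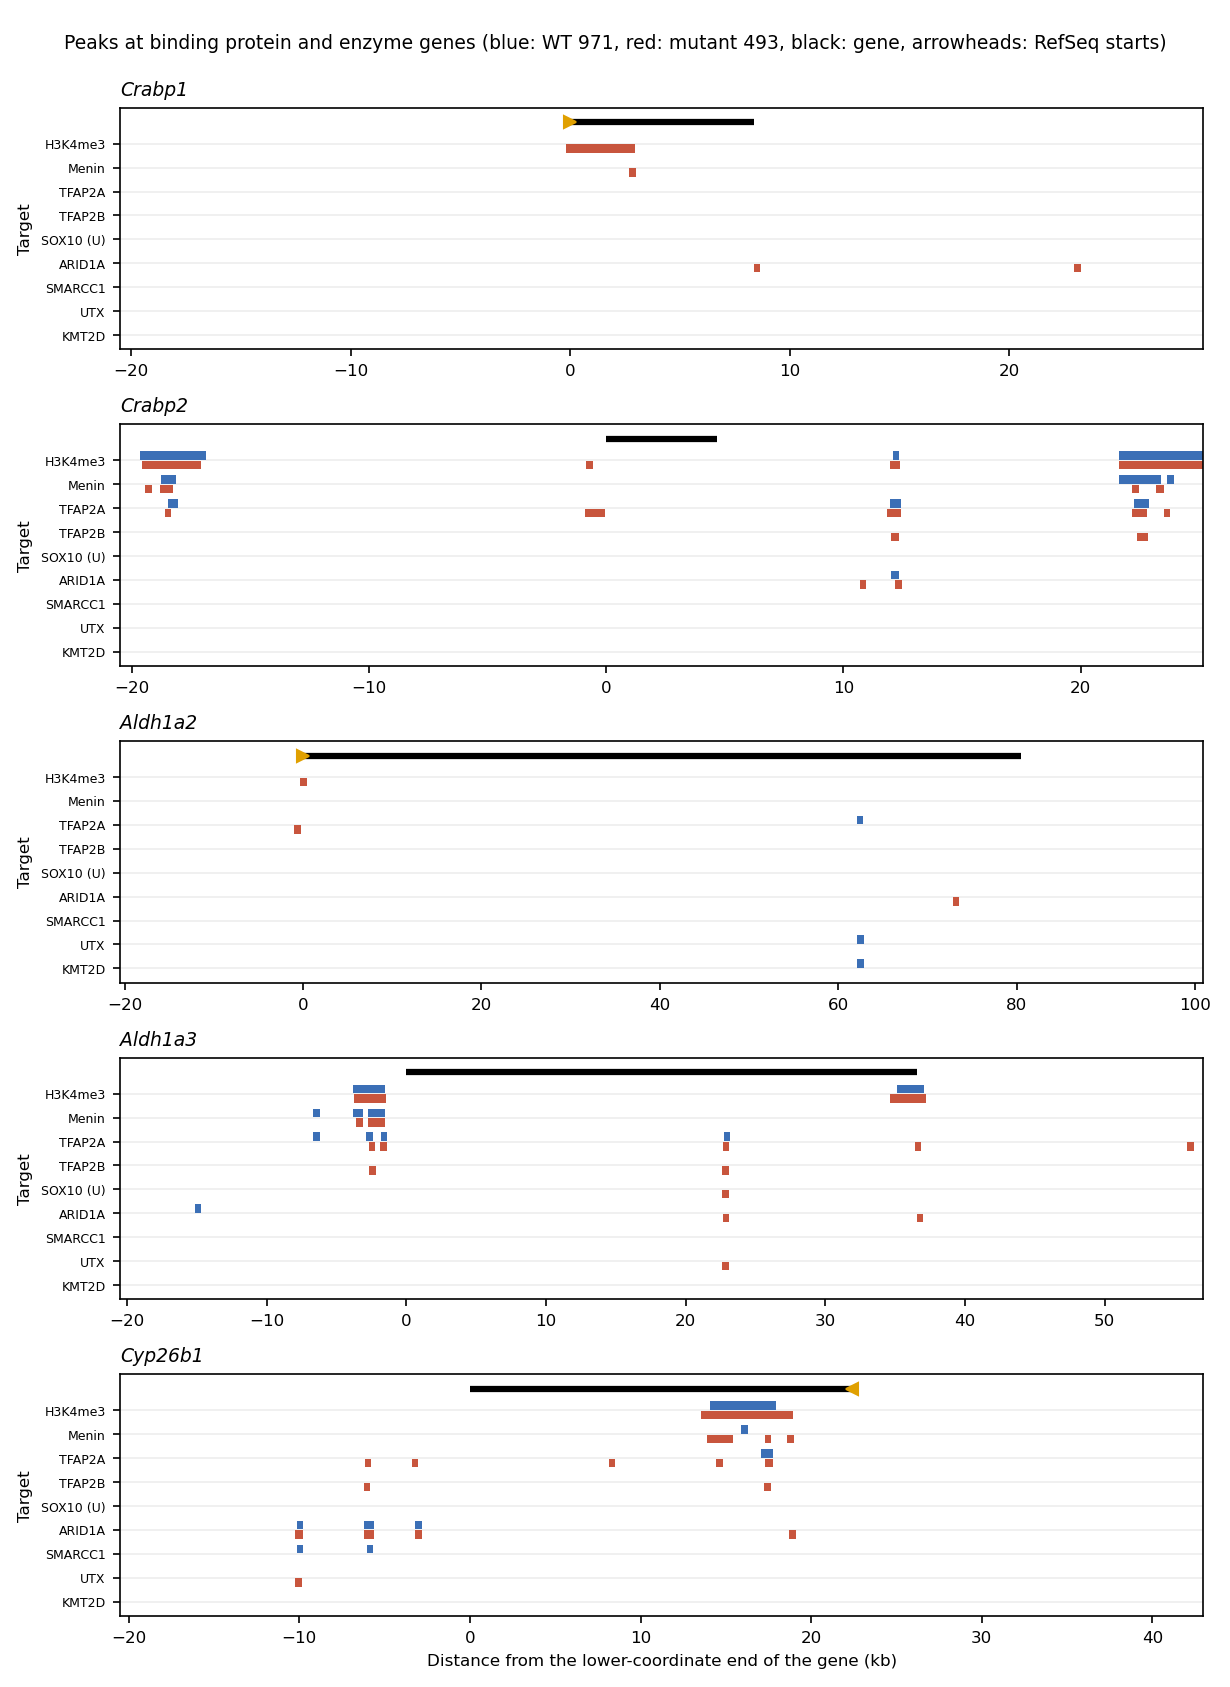
Peaks of each target (rows) along Crabp1, Crabp2, Aldh1a2, Aldh1a3 and Cyp26b1, as distance from the lower-coordinate gene end in kb, with blue bars for WT, red bars for mutant peaks, a black bar for the gene and arrowheads for RefSeq starts where the table has one. Crabp1 is empty in WT, and mutant peaks of SOX10, TFAP2A, TFAP2B, ARID1A and UTX stack at 1 place inside Aldh1a3.

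Over whole loci and the 9 paired targets, the 10 genes held 115 WT and 111 mutant peaks. Rara (33 WT and 25 mutant), Rarb (18 and 6) and Rxra (15 and 10) had more in WT. Crabp1 (0 and 4), Crabp2 (10 and 15), Aldh1a2 (2 and 3), Aldh1a3 (10 and 12) and Cyp26b1 (8 and 14) had more in mutant. These 8 genes kept that order in all 7 settings tried, the reported one included. Rarg (12 and 15) kept it in 6 of 7, and Rxrb had 7 in each line. The settings re-use the same peaks, and the lists differ in size and depth between the lines. The share of all genes with more peaks in either line was not taken, so nothing is read from the order. Overlapping peaks of the 10 WT and 12 mutant lists merged into 56 sites. Of these, 32 were called in both lines, 11 in WT only and 13 in mutant only. Each WT-only or mutant-only site held a peak of a paired target. The share of such sites over all genes was not taken, so nothing is read from these counts. The WT-only sites were 3 at Rara, 3 at Rarb, 2 at Rxra, 2 at Aldh1a3 and 1 at Aldh1a2.

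**Figure D4:**
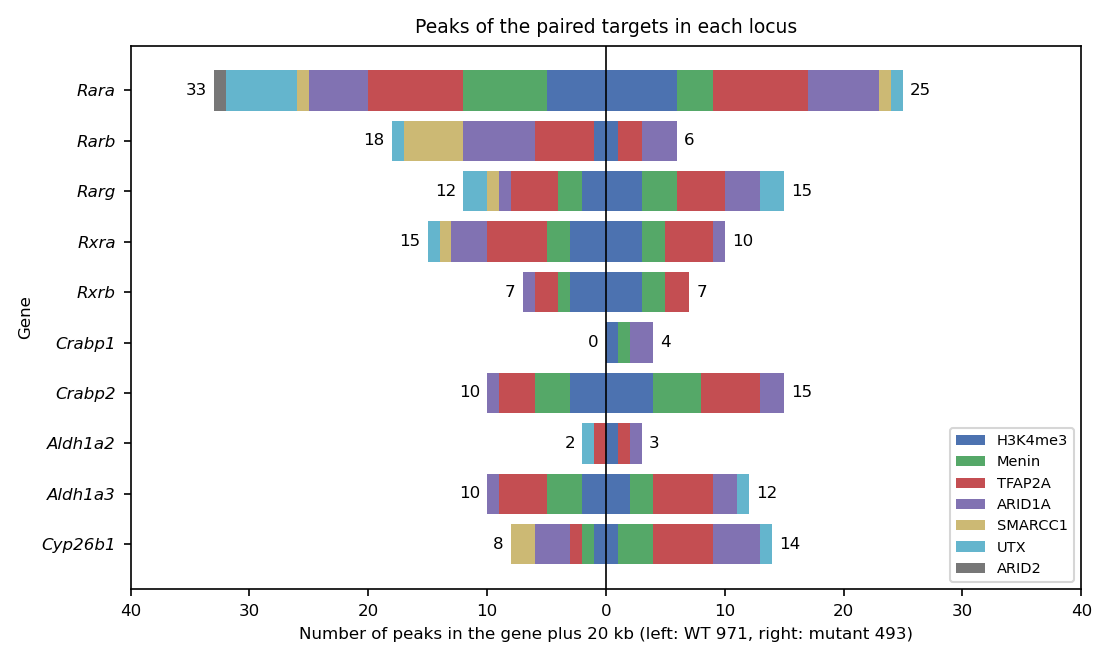
Number of peaks of the paired targets in each gene plus 20 kb, WT to the left and mutant to the right of 0, coloured by target. Rara (33 and 25), Rarb (18 and 6) and Rxra (15 and 10) reach farther to the left, and Crabp2 (10 and 15) and Cyp26b1 (8 and 14) farther to the right.

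KMT2D had 8 peaks in the loci of Rara (3), Rarg (3), Rxra (1) and Aldh1a2 (1), 4 of 10 genes, beside 27.7% of all genes with such a peak. In WT, TFAP2A overlapped all 8 (57.7% of all 6434 KMT2D peaks), UTX 7 (88.3%), ARID1A 5 (87.7%), SMARCC1 2 (48.0%), Menin 2 (37.7%) and H3K4me3 1 (34.7%). In mutant, 6 of the 8 places had ARID1A (84.3% of all places with a KMT2D peak), 5 TFAP2A (64.3%), 4 TFAP2B (45.1%) and 3 UTX (60.6%). With 8 peaks, nothing is read from these counts against the shares. The sites past Rxra and inside Aldh1a2 had none of these. Fold enrichment of the 8 KMT2D peaks ran from 3.61 to 16.0, in a list with a median of 9.30. TFAP2B had 16 peaks in the loci of 6 genes (40.8% of all genes have one). SOX10 had 2 peaks with antibody U (20.6%), at Rarb and Aldh1a3, and 0 with antibody T (5.21%).

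Of the WT locus peaks, 68 of 115 (59.1%) overlapped a mutant peak of the same target, and 71 of 111 (63.96%) the other way. H3K4me3 of WT was shared at 19 of 20 peaks (95%, Wilson 95% interval 76.4 to 99.1%), beside 91.7% over its whole list. TFAP2A was shared at 24 of 33 (72.7%, 55.8 to 84.9%), beside 82.5%, and ARID1A at 12 of 21 (57.1%, 36.5 to 75.5%), beside 70.9%. Menin was shared at 9 of 19 (47.4%, 27.3 to 68.3%), beside 77.0%. UTX was shared at 3 of 11 (27.3%, 9.75 to 56.6%), beside 53.3%, and SMARCC1 at 1 of 10 (10%, 1.79 to 40.4%), beside 16.9%. Counted from the mutant peaks, the order of locus and whole list turned for TFAP2A, at 24 of 36 (66.7%, 50.3 to 79.8%) beside 52.6%, and for UTX, at 3 of 5 (60%, 23.1 to 88.2%) beside 54.6%. It also turned for SMARCC1, whose only mutant locus peak was shared (67.3% of that list). Mutant H3K4me3 was shared at 20 of 25 (80%) beside 79.8%, Menin at 11 of 20 (55%) beside 62.7%, and ARID1A at 12 of 24 (50%) beside 62.5%. Intervals cover counting error only, and peaks of 1 gene are not independent (7 of the 19 WT Menin peaks lay at Rara). The genes were chosen with their calls known, so nothing is read from an interval against a whole-list share.

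Of 47 other genes of the pathway, 25 had gene-end H3K4me3 in WT (53.2%, beside 49.3% of all genes) and 27 in mutant (57.4%, beside 53.8%). Rxrg, the gene of the remaining RXR (11.98), and Rbp4, which encodes the retinol carrier of blood (5.75), had it in mutant only. The count was 25 in each line among peaks whose −log10 q reached 5. By group, WT and mutant counts were 1 and 2 of 8 genes of uptake, binding and storage, and 6 and 6 of 12 of synthesis and breakdown. They were 11 and 12 of 12 receptor partners and cofactors, and 7 and 7 of 15 classical targets. Fabp5, which encodes another retinoic acid carrier, had H3K4me3 at 5.97 (WT, list median 11.7) and 28.7 (mutant, list median 16.5). It had Menin (11.7), TFAP2A (11.9), ARID1A (4.38) and UTX (7.83) in mutant only. TFAP2A marked 12 of the 47 in WT (25.5%, beside 24.6% of all genes) and 19 in mutant (40.4%, beside 34%). Among classical targets Meis1 (4.24), Meis2 (6.22), Nr2f1 (5.94) and Btg2 (6.79) had it in mutant only, all under the list median of 8.48. Med1, a Mediator subunit gene, had it in WT only.

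For the 4 members with gene-end peaks in at least 3 lists, the most like genes were ranked by the mean absolute difference in gene-end percentile over the 22 lists, with 0 where there was no peak. For Rarg, with peaks in 8 lists, they were Cdc42ep1 (3.72 percentile points), Mbtps1 (4.09) and Trerf1 (4.19). For Rxrb, in 7 lists, they were H13 (2.12), Trabd (2.24) and Gna11 (2.53). For Rxra, in 4 lists, they were Trnp1 (1.11), Sybu (1.28) and Slc12a3 (1.32). For Aldh1a3, in 4 lists, they were Faap100 (0.666), Cep126 (0.816) and Bend3 (1.00). Lists with no peak at either gene add 0 to the mean, which keeps it small. Trnp1 and Slc12a3 had a peak in 2 of the 4 lists of Rxra and Sybu in 3, and the genes named for Aldh1a3 had one in 3 of its 4. For Rarg the shared lists numbered 7, 6 and 8 of 8 in the order named, and for Rxrb 6 of 7 each.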

How the data were processed

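Peak lists of 22 of the 24 samples were used, and the 2 rabbit IgG libraries were not analysed here. Per the submitters' processing notes, the tools were FastQC, MultiQC, Bowtie2 and MACS2, with mm10 as the build. Versions, settings and the control are not given in the sources used here. For a peak, the deposited columns are a score, a fold enrichment (ratio), a −log10 p and a −log10 q.

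Gene ends came from the RefSeq gene table of GRCm38.p6, and an overlap of 1 bp counted. Members and gene lists were chosen with earlier results of these data known. No test was made. Named genes are the members, genes of the lists, neighbours sharing a peak with a member, and the 3 most like genes of each member with gene-end peaks in at least 3 lists.

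Depth at calling was reconstructed from fold enrichment and −log10 p, assuming a genome size of 1.87e+09 bp and fragments as long as the shortest peak. It could not be had for mutant BRD9 and SOX10 antibody T. At equal depth, the deeper list's peaks were scaled down and dropped under the other list's lowest −log10 p. Gene-end calls were checked on planted peaks, and the recovery of a caller's background on simulated summits. The simulated share of summits at the background was larger than in most lists. In the lists it ran from 6.5% (mutant PBRM1) to 66% (mutant SMARCC1) of sampled summits. The step from background to depth and the scaling to equal depth were not simulated. Versions were Matplotlib 3.10.9, SciPy 1.17.1, pandas 2.3.3, NumPy 2.4.6 and Python 3.11.15.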

Additional observations from a re-analysis of the deposited data

How the results depend on the processing

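No paired analysis was possible because each line and target had 1 library and no test was made. Alternatives were gene ends of 2.5 kb and 500 bp, flanks of 5 kb and 50 kb, a −log10 q of at least 5, equal depth, summits in place of whole peaks, an overlap of at least 50% of both peaks, and leaving out regions called in at least 15 lists. Counting at RefSeq promoter windows and leaving out peaks at neighbours' ends were added after the data were seen. Of 61 alternative counts over all members or over the other pathway genes, 54 stayed within 1.5 times the reported count. With gene ends of 2.5 kb, calls in WT only numbered 4 in place of 2. With flanks of 50 kb, locus peaks numbered 181 (WT) and 183 (mutant), and SOX10 peaks 4 with antibody U and 1 with antibody T. At a −log10 q of at least 5, TFAP2B locus peaks numbered 10 and SOX10 antibody U peaks 1. Larger windows hold more peaks and a stricter limit fewer by construction. Of 120 alternative counts for single loci, 27 moved by more than 1.5 times.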
